A study of Mus musculus with 16 samples.

Results

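The genes described here are those of the proteasome, the protease that degrades ubiquitin-tagged proteins, together with Nfe2l1, the transcription factor that drives their expression. They were taken by name from the deposited expression table of 4 mouse fat depots, as every entry whose symbol is Psma, Psmb, Psmc, Psmd, Psme, Psmf or Psmg followed by a number, plus Nfe2l1. The rule gave 49 genes among 46206 distinct symbols in 46386 table entries. Of the 50 entries that matched, Psmd5 had a pair, and the entry with the higher mean was used. Of the 49 genes, 47 reached at least 1 FPKM in at least 4 libraries and were tested among 14991 genes, and the tissue-restricted Psma8 and Psmb11 did not.

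The proteasome is built from a barrel-shaped core particle and caps that open it. The core is a stack of rings of alpha subunits (Psma) and beta subunits (Psmb), and the catalytic sites sit on Psmb5, Psmb6 and Psmb7. In cells that respond to interferon, and in many leukocytes, these catalytic subunits are exchanged for Psmb8, Psmb9 and Psmb10, which form the immunoproteasome and favour peptides for class I antigen presentation. The regulatory cap has a base of ATPases (Psmc) with ubiquitin receptors and scaffolds (Psmd), and a lid that removes ubiquitin. Psme genes encode other activators, Psmg genes and Psmd5, Psmd9 and Psmd10 encode assembly chaperones, and Psmf1 encodes an inhibitor or adaptor. Nfe2l1 is held in the endoplasmic reticulum and is released to raise proteasome genes when proteasome capacity falls short. In mouse brown fat it is known to be needed for proteasome activity during adaptation to cold.

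RNA was sequenced from thigh adipose tissue (tAT), brown adipose tissue (BAT), epididymal white adipose tissue (eWAT) and inguinal white adipose tissue (iWAT), with 4 libraries a depot. All 16 libraries are of male C57BL66/J mice made obese by high-fat feeding, so the depots share sex, strain and diet. No lean group was analysed here, and the sources used here give no age. Frozen tissue was extracted with Trizol, and TruSeq libraries were made from 1 µg of RNA. Nothing in the labels ties the 4 libraries of a depot to separate animals, so every p-value reflects library-to-library spread, part or all of which may be technical. In such bulk samples fewer cells of a type and less RNA per cell cannot be told apart.

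Expression is given as FPKM, fragment counts divided by gene length and by the total of mapped fragments, so levels of different genes can be compared per length. FPKM is relative to the total of each library, so a few abundant genes can press on all others. The 10 most abundant entries held 25.8 to 29.7% of FPKM in tAT and 27.6 to 32.1% in BAT. In eWAT and iWAT they held 18.1 to 21.0% and 19.0 to 22.0%. Median-of-ratios size factors measure the shift of the typical gene between libraries. They were 1.04 to 1.13 in tAT, 0.711 to 0.753 in BAT, 1.08 to 1.18 in eWAT and 1.13 to 1.17 in iWAT. What set these factors was not tested. Each comparison is therefore given on FPKM and again on FPKM divided by these factors, called the scaled values below. Ucp1, which marks brown adipocytes, was at 114 to 461 FPKM in tAT, 3771 to 5172 in BAT, 0.0231 to 0.147 in eWAT and 0.194 to 0.304 in iWAT. Other tissues were also present. The 12 skeletal muscle markers had sums of 28053, 28194 and 17856 FPKM in tAT 1, 2 and 4, while tAT 3 had 308. BAT 3 and 4 had 3354 and 2717, while BAT 1 and 2 had 145 and 126. These 5 libraries are called muscle-rich, and without them tAT is left with a lone library. The 13 leukocyte markers summed to 144 to 267 FPKM in tAT, 25.2 to 39.2 in BAT, 831 to 1617 in eWAT and 429 to 699 in iWAT. The 7 lymphocyte markers among them summed to 141 FPKM in iWAT 3 and to at most 17.1 in every other library. The 3 epididymis markers reached 367 FPKM in eWAT 3. On FPKM, all 7 brown adipocyte markers were higher in BAT than in each white depot, against 15.2% (eWAT) and 12.7% (iWAT) of all tested genes. In tAT 6 of 7 were higher, against 21.6% and 10.5%. Of 7 general adipocyte markers, 5 were lower in tAT than in each white depot, against 36.0% and 29.4%. In BAT 6 were lower, against 59.0% and 61.5%. When scaled, 5 were lower in BAT than in eWAT and 6 than in iWAT, against 35.5% and 33.4%. The 4 endothelial markers were higher in tAT than in eWAT, against 21.6%.

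The promoters of Psmb8 and Psmb9, which were lower in BAT than in the other depots, are shown with those of the constitutive subunits they replace, Psmb5 and Psmb6. They are RefSeq promoters of build GRCm38.p6, which is the mm10 of the expression table, from 250 bases before to 50 after the start of the gene, written 5′ to 3′ on the strand of the gene. Psmb5 lies at chr14:54617946-54618245 on the minus strand, Psmb8 at chr17:34197945-34198244 on the plus strand, Psmb6 at chr11:70525107-70525406 on the plus strand and Psmb9 at chr17:34187281-34187580 on the minus strand. Capitals mark a match, on either strand, to the antioxidant response element TGACNNNGC, the kind of element Nfe2l1 binds with a small Maf partner, or to the interferon-stimulated element, which is a pair of GAAA runs with NN between them.
Psmb5: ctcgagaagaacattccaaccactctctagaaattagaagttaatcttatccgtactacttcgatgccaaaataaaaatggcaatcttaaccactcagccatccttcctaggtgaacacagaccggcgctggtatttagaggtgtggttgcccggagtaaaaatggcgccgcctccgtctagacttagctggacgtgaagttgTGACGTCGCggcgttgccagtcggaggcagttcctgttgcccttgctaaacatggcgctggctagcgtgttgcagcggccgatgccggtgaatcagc
Psmb8: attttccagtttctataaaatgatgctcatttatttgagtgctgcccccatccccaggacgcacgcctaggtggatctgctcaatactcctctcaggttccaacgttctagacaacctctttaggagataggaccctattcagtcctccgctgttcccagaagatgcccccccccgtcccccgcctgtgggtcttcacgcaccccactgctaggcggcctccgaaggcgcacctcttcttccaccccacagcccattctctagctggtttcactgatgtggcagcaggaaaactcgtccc
Psmb6: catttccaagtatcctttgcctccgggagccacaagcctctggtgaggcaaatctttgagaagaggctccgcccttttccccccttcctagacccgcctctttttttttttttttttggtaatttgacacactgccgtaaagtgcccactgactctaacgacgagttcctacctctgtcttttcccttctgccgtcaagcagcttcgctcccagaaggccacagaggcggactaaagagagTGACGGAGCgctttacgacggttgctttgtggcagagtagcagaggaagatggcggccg
Psmb9: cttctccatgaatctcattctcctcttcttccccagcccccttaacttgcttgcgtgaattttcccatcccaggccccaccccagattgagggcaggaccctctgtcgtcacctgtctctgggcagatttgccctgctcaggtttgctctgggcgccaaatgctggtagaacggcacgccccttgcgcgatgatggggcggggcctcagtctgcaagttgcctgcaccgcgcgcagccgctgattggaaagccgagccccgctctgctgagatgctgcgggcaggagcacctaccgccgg

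Both constitutive genes held an antioxidant response element, with its first base at -47 from the start site in Psmb5 and at -9 in Psmb6. The Psmb8 and Psmb9 windows held neither pattern. Both windows lie inside the bounds that the GENCODE annotation gives these genes, so the sequence upstream of those bounds was not searched. The table of promoters matched 41 of the 49 genes, with 48 promoter windows. The antioxidant response element was in 12.5% of these windows (Psmb5, Psmb6, Psmc6, Psmd12, Psmd9 and Psme4) and in 12.4% of all 32851 windows, so the share among proteasome genes was near the background. The interferon-stimulated element was in 10.4% of them (Psmb3, Psmd4, Psmd9, Psme1 and Psmg4) and in 3.44% of all windows. A match is a run of letters and not a known binding site.

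Proteasome transcripts were abundant in every depot. The 49 genes summed to 3856, 3729.8, 4789 and 3768 FPKM in the 4 tAT libraries, 3384, 3335, 3229 and 3101 in BAT, 5863, 4944, 4806 and 5252 in eWAT and 4465, 4925, 5054 and 4849.9 in iWAT. As a share of all FPKM this was 0.393 to 0.446% in tAT, 0.379 to 0.392% in BAT, 0.520 to 0.590% in eWAT and 0.492 to 0.562% in iWAT. Both white depots lay above both others with no overlap in share, and tAT 3 was the highest of the tAT libraries in summed FPKM. Psme2, a subunit of the interferon-inducible activator, was the most abundant member, at 517 to 1121 FPKM in tAT, 421 to 511 in BAT, 896 to 1329 in eWAT and 833 to 983 in iWAT. Its partner Psme1 was lower, with 6.07 to 7.78 Psme2 FPKM per Psme1 FPKM in tAT, 5.67 to 6.74 in BAT, 6.77 to 8.49 in eWAT and 5.66 to 8.04 in iWAT, and the level of Psme2 is uncertain because reads may be shared with its copy Psme2b, listed at a mean of 0.709 FPKM. By class, the median of the genes' means over all libraries was 109 FPKM for the alpha ring, 130.0 for the constitutive beta subunits, 66.4 for the base ATPases, 52.1 for the lid, 36.3 for the immunoproteasome, 17.7 for the base chaperones and 17.4 for the core chaperones. The map of genes by library shows the immunoproteasome rows as the widest swing between depots.

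**Figure D1:**
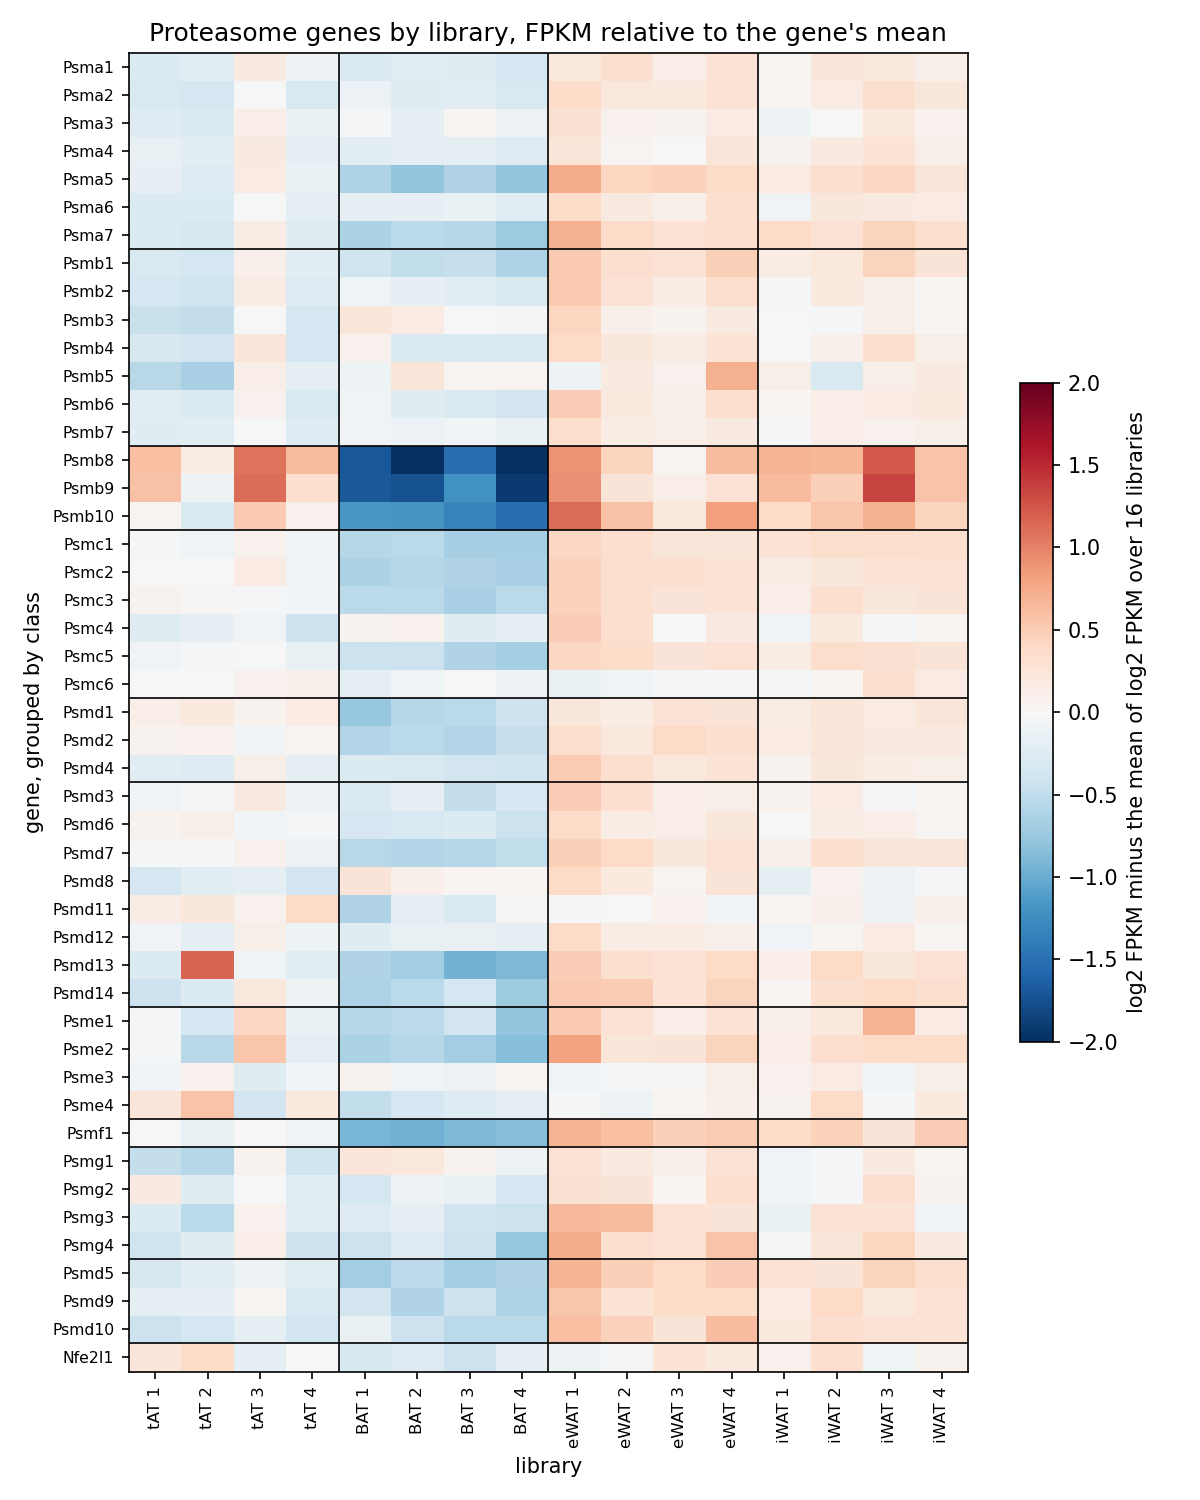
Each row is a gene, grouped by class with black lines, and each column a library in the order tAT, BAT, eWAT, iWAT. Colour is log2 FPKM minus the mean of log2 FPKM over the 16 libraries, cut at -2 and 2. The 3 immunoproteasome rows are blue in all 4 BAT libraries, and Psmd13 stands out in tAT 2.

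Counted by the limma test on FPKM (adjusted p under 0.05 over all tested genes), most proteasome genes were lower in BAT than in the white depots. tAT was higher than BAT for 25 of the 47 tested genes and lower for 3, against 58.6% and 11.2% of all tested genes, and the median log2 difference of the 47 was 0.31, against 0.44 over all genes. BAT was lower than eWAT for 39 and higher for 0, against 59.0% lower and 15.2% higher of all genes, with a median of -0.66, against -0.52. BAT was lower than iWAT for 39 and higher for 0 as well, against 61.5% lower and 12.7% higher of all genes, with a median of -0.45, against -0.54. At an unadjusted p under 0.05 limma gave 40 lower and 0 higher in each of these. The median gene of the whole table thus lay in the same direction in BAT. Without the muscle-rich libraries the lower counts in BAT were 39 against eWAT and 34 against iWAT. Over all 14991 tested genes they were 8189 and 8437.

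Against the white depots, tAT was also the lower side. tAT was lower than eWAT for 37 genes and higher for 0, against 36.0% and 21.6% of all genes, with a median of -0.39, against -0.08. tAT was lower than iWAT for 24 and higher for 0, against 29.4% and 10.5%, with a median of -0.27, against -0.11. Unadjusted, limma gave 37 lower and 0 higher against eWAT, and 30 lower and 0 higher against iWAT. The tAT differences moved with the muscle-rich libraries, and without those libraries tAT is the lone tAT 3. The median of tAT minus eWAT was then -0.19 for the 14 constitutive core subunits and -0.22 for the 17 cap subunits, against -0.11 over all genes. For tAT minus iWAT the medians were -0.041 and -0.13, against -0.14 over all genes. Leaving out tAT 3 alone gave 33 lower than in iWAT, against 4627 of all 14991 genes. Leaving out tAT 1 or tAT 4 gave 14 each, against 3990 and 3611 of all genes. All 14 constitutive core subunits had their highest tAT value in tAT 3. The part of the muscle transcripts in these counts was not tested. eWAT was higher than iWAT for 1 gene and lower for 0, against 8.48% and 5.52% of all genes, with a median of 0.12, against -0.00271, and 7 were higher and 1 lower at an unadjusted p under 0.05.

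On the scaled values the picture in BAT split by gene. tAT was higher than BAT for 4 and lower for 21, against 27.4% and 26.4% of all genes, with a median of -0.23. BAT was higher than eWAT for 12 and lower for 16, against 33.8% and 35.5%, with a median of -0.03. BAT was higher than iWAT for 19 and lower for 9, against 30.6% and 33.4%, with a median of 0.18. Of the calls on both scales, 16 against eWAT and 9 against iWAT had the same direction, and 5 and 11 had opposite directions. By their medians, the white comparisons of tAT kept their direction. tAT was lower than eWAT for 28 and higher for 1, against 31.2% and 26.2%, with a median of -0.30. tAT was lower than iWAT for 9 and higher for 0, against 21.2% and 15.0%, with a median of -0.16. The 9 lower genes were 19.1% of those tested, near the share of all genes. At an unadjusted p under 0.05 limma gave 12 lower and 1 higher. Without the muscle-rich libraries fewer genes were lower against eWAT on the scaled values, among proteasome genes and over all genes. Against iWAT, leaving out tAT 3 gave 25 lower and leaving out tAT 1 gave 4, against 3609 and 2536 of all 14991 genes. Leaving out tAT 4 or iWAT 4 gave 5 each, against 2457 and 2648 of all genes. eWAT and iWAT differed for 0 genes in either direction, against 8.59% higher and 4.96% lower of all genes, with 6 higher and 0 lower at an unadjusted p under 0.05. The 6 comparisons share libraries, so their counts are not independent of each other.

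**Figure D2:**
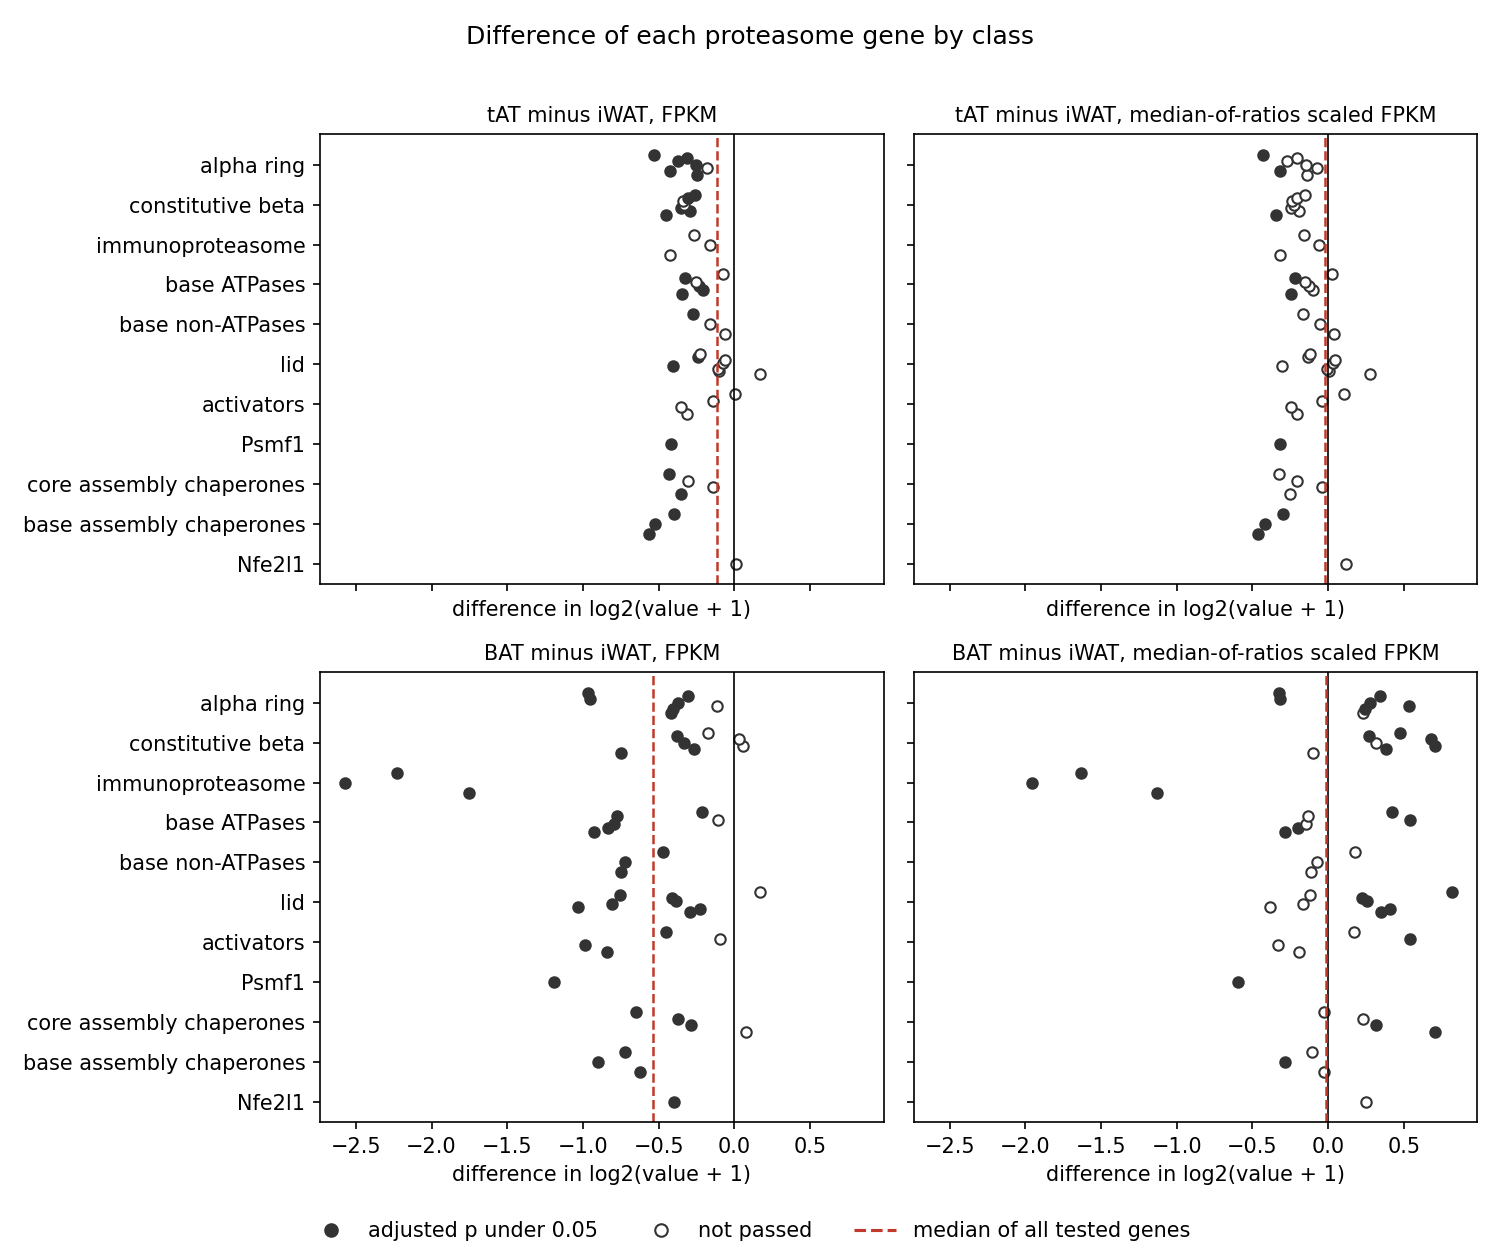
Each point is a gene, placed by its difference in log2(value + 1), tAT minus iWAT in the upper panels and BAT minus iWAT in the lower panels, on FPKM at left and on scaled FPKM at right. Filled points passed at an adjusted p under 0.05, and the dashed line is the median of all tested genes, -0.54 for BAT minus iWAT on FPKM. The immunoproteasome and Psmf1 lie far left of the dashed line in BAT on both scales.

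The 3 immunoproteasome subunits were lower in BAT than in each other depot on both scales, and none of them passed between tAT and iWAT. Psmb8, the counterpart of the chymotrypsin-like Psmb5, lies at chr17:34197721-34201454 on the plus strand by the GENCODE annotation of GRCm38, whose gene bounds can differ from the RefSeq start used for the promoters. It had 52.1, 38.3, 73.3 and 53.2 FPKM in tAT, 10.6, 7.38, 12 and 7.48 in BAT, 64.5, 47.0, 35.6 and 52.9 in eWAT and 54.9, 54.7, 80.3 and 51.3 in iWAT. Every BAT library was below every other library. The log2 difference was 2.41 ± 0.22 (SE, adjusted p = 1.39e-07) for tAT minus BAT, -2.29 ± 0.22 (SE, adjusted p = 9.41e-08) for BAT minus eWAT and -2.57 ± 0.22 (SE, adjusted p = 3.03e-08) for BAT minus iWAT, and on scaled values it was 1.90, -1.70 and -1.96 in the same order.

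Psmb9, which replaces the caspase-like Psmb6, lies at chr17:34181987-34187764 on the minus strand and overlaps Tap1 on the opposite strand, so reads of the pair may not be fully separated. It had 31.4, 19.4, 45.3 and 26.4 FPKM in tAT, 6.53, 6.29, 9.02 and 5.55 in BAT, 39.7, 25.1, 22.9 and 25.7 in eWAT and 32.3, 29.2, 53.4 and 31.1 in iWAT. BAT again lay below all others. tAT minus BAT was 1.97 ± 0.25 (SE, adjusted p = 4.84e-06), BAT minus eWAT -1.89 ± 0.25 (SE, adjusted p = 3.99e-06) and BAT minus iWAT -2.23 ± 0.25 (SE, adjusted p = 7.15e-07). Psmb10, which replaces the trypsin-like Psmb7, had 32.8, 26.0, 45.4 and 33.4 FPKM in tAT, 14.1, 13.9, 12.5 and 11 in BAT, 68.8, 47.3, 36.6 and 55.7 in eWAT and 41.5, 46.7, 51.7 and 42.9 in iWAT. Its BAT libraries did not overlap those of any other depot, with 1.33 ± 0.18 (SE, adjusted p = 7.78e-06) for tAT minus BAT, -1.91 ± 0.18 (SE, adjusted p = 6.97e-08) for BAT minus eWAT and -1.75 ± 0.18 (SE, adjusted p = 2.19e-07) for BAT minus iWAT. Psmb10 was also lower in tAT than in eWAT, with overlapping libraries. The difference was -0.58 ± 0.18 (SE, adjusted p = 0.011). Leaving out the muscle-rich libraries gave -0.16 (adjusted p = 0.676).

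These differences in BAT passed without the muscle-rich libraries too, at 2.91, 2.64 and 1.63 for tAT minus BAT and -2.61, -2.30 and -1.63 for BAT minus iWAT in Psmb8, Psmb9 and Psmb10. Without iWAT 3, the lymphocyte-rich library with the highest iWAT value of all 3 genes, BAT minus iWAT was -2.43, -2.04 and -1.69. Leukocyte markers moved with the BAT result. Their sum was 25.2 to 39.2 FPKM in BAT. It was 144 to 267 in tAT, 831 to 1617 in eWAT and 429 to 699 in iWAT. Of the 9 tested markers, 6, 6 and 8 were lower in BAT than in tAT, eWAT and iWAT on FPKM. Over all genes these shares were 58.6%, 59.0% and 61.5%, so the first 2 counts were near the background. When scaled, 6 were lower in BAT in each comparison, against 27.4%, 35.5% and 33.4% of all genes. The other 4 of 13 markers were below the filter of the test. Their part in the result was not tested. tAT had fewer leukocyte transcripts than iWAT, with 6 of 9 markers lower, against 29.4% of all genes. Its 3 immunoproteasome genes differed from iWAT by -0.16 (adjusted p = 0.582), -0.27 (adjusted p = 0.418) and -0.42 (adjusted p = 0.0685), which did not pass.

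**Figure D3:**
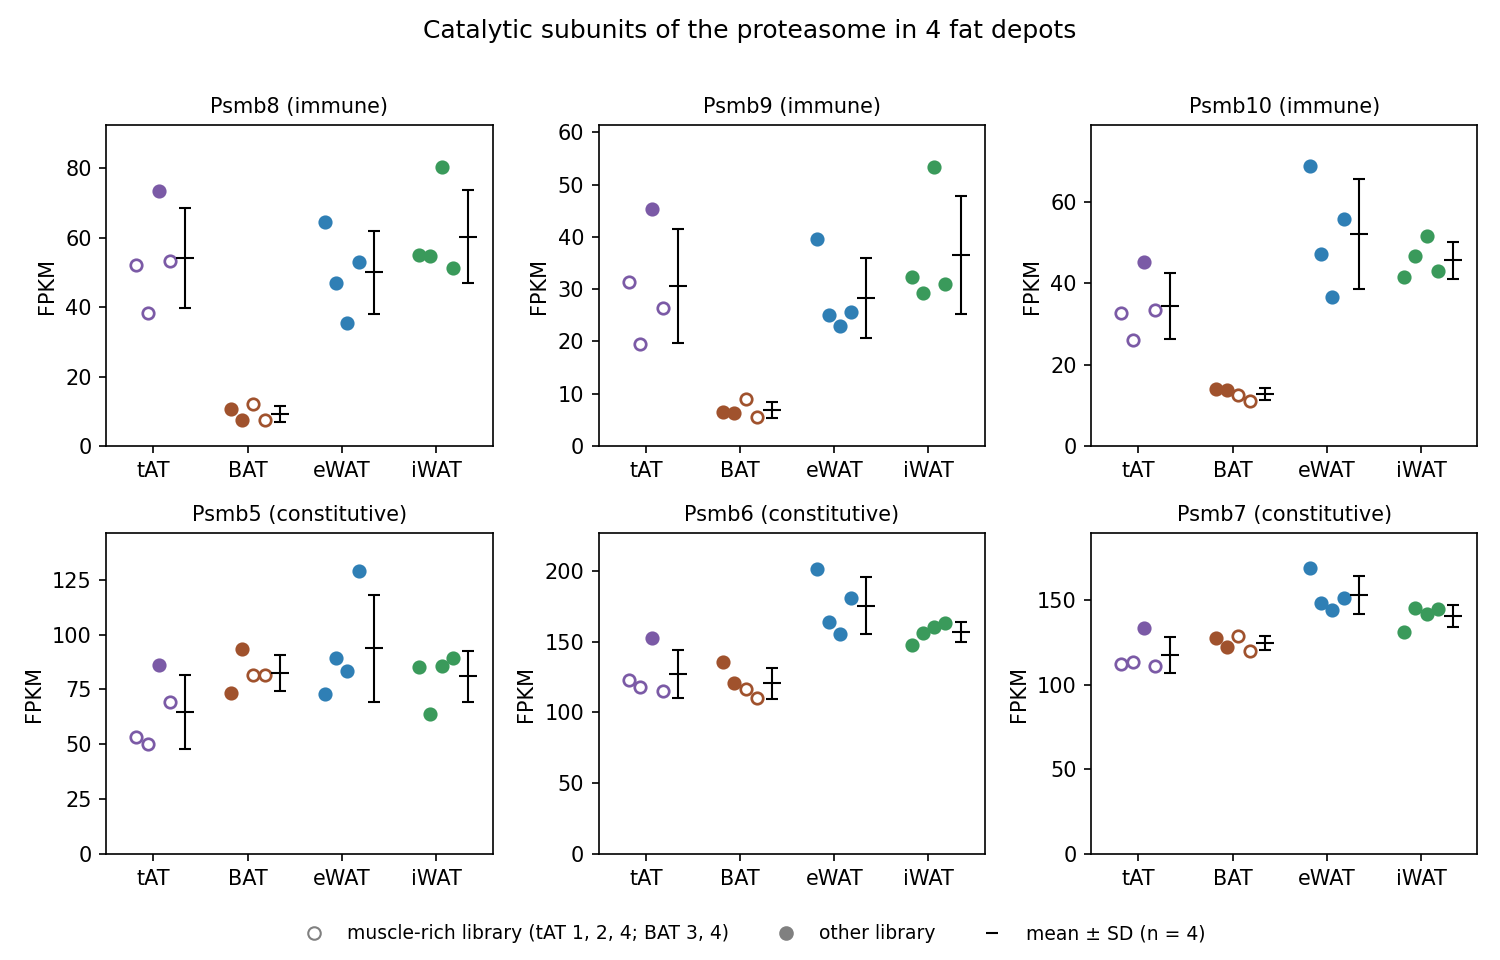
FPKM of the 3 immune catalytic subunits (upper row) and of the constitutive subunit each replaces (lower row), by library, with mean ± SD of 4 libraries. Open circles are the muscle-rich libraries. Psmb8 stays at 7.38 to 12 FPKM in BAT, below all other libraries, while Psmb5 in BAT (73.2 to 93.5) lies inside the range of the other depots.

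The constitutive partners did not share this pattern. Psmb5 had 53.4, 49.9, 86.4 and 69.5 FPKM in tAT, 73.2, 93.5, 81.7 and 81.7 in BAT, 73.2, 89.5, 83.5 and 129 in eWAT and 85.2, 64.0, 85.7 and 89.5 in iWAT. The depots overlapped, and BAT minus iWAT was 0.03 ± 0.18 (SE, adjusted p = 0.882) on FPKM and 0.68 (adjusted p = 0.00797) on scaled values. tAT minus eWAT, -0.53 ± 0.18 (SE, adjusted p = 0.0225), passed on FPKM only. Psmb6 had 123, 118, 152 and 115 FPKM in tAT, 136, 121, 116 and 109.8 in BAT, 201, 164, 155 and 181 in eWAT and 147, 156, 160.2 and 163 in iWAT. It was lower in BAT than in both white depots on FPKM (-0.53 and -0.38) and on the other side of 0 when scaled (0.10 and 0.27, of which the second passed). Psmb7 had 112, 113, 134 and 111 FPKM in tAT, 127, 123, 129 and 119.7 in BAT, 169, 148, 144 and 151 in eWAT and 131, 145, 142 and 145 in iWAT. Its BAT libraries were below those of both white depots, yet scaled BAT minus eWAT was 0.34 and BAT minus iWAT 0.48, both passing as higher.

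A ratio of a pair within a library does not depend on the scaling, and it separated BAT from the rest for all 3 pairs. The ratio of Psmb8 to Psmb5 FPKM was 0.976, 0.768, 0.849 and 0.766 in tAT, 0.145, 0.0789, 0.147 and 0.0915 in BAT, 0.881, 0.526, 0.426 and 0.410 in eWAT and 0.644, 0.855, 0.937 and 0.574 in iWAT. tAT averaged 0.840 ± 0.0990, BAT 0.115 ± 0.0352, eWAT 0.561 ± 0.220 and iWAT 0.753 ± 0.172 (SD, n = 4 each), and only BAT stood outside the range of all others. Psmb9 to Psmb6 averaged 0.237 ± 0.0556 in tAT, 0.0571 ± 0.0137 in BAT, 0.160 ± 0.0251 in eWAT and 0.233 ± 0.0685 in iWAT. Psmb10 to Psmb7 averaged 0.291 ± 0.0458 in tAT, 0.103 ± 0.0105 in BAT, 0.337 ± 0.0657 in eWAT and 0.325 ± 0.0288 in iWAT. In all 9 comparisons with BAT the libraries did not overlap, and the exact two-sided permutation test gave p = 0.0286, the smallest that 4 against 4 libraries allow, which is 0.0571 after Benjamini-Hochberg adjustment over the 18 tests and so did not pass. The log2 difference of Psmb8 to Psmb5 was 2.91 for tAT minus BAT, -2.26 for BAT minus eWAT and -2.73 for BAT minus iWAT. In the 9 comparisons among tAT, eWAT and iWAT the libraries overlapped, with exact p from 0.0571 to 0.886.

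Taken as a share of the 6 catalytic subunits' FPKM, the immune subunits made up 22.9 to 30.6% in tAT, 7.16 to 9.31% in BAT, 19.9 to 28.0% in eWAT and 24.0 to 32.4% in iWAT. The makeup of the immune set itself also varied. The ratio of Psmb10 to Psmb8, picked after its values were seen and given with no test, was 0.619 to 0.678 in tAT, 1.05 to 1.88 in BAT, 1.01 to 1.07 in eWAT and 0.644 to 0.854 in iWAT. Psmb8 thus exceeded Psmb10 in every tAT and iWAT library, and Psmb10 exceeded Psmb8 in every BAT and eWAT library.

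**Figure D4:**
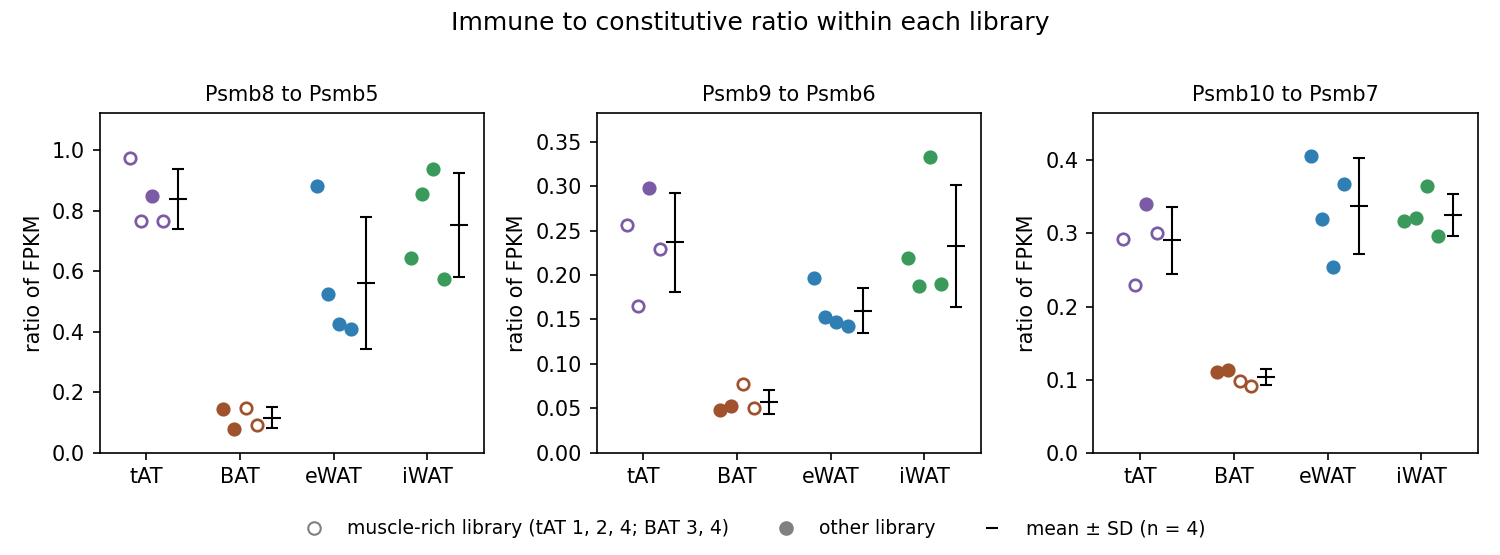
Ratio of immune to constitutive FPKM within each library for the 3 catalytic pairs, with mean ± SD of 4 libraries. Open circles are the muscle-rich libraries. BAT is the lowest group in each panel, for example 0.0789 to 0.147 for Psmb8 to Psmb5, against 0.766 to 0.976 in tAT.

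The 14 constitutive core subunits and the 17 subunits of the cap had different medians in BAT. On FPKM, BAT was lower than iWAT for 10 core subunits, with a median of -0.35, and for 15 cap subunits, with a median of -0.72, against 61.5% and a median of -0.54 over all genes. The core median was thus nearer 0 than that of all genes. On scaled values BAT was higher for 9 core subunits and lower for 2 (median 0.30), and higher for 7 cap subunits and lower for 2 (median -0.08), against 30.6% higher and 33.4% lower of all genes. tAT was higher than BAT for 3 core and 12 cap subunits on FPKM, with medians of -0.00492 and 0.45, and lower for 1 of each, against 58.6% higher and 11.2% lower of all genes. Without the muscle-rich libraries the core and cap medians were 0.26 and 0.47, against 0.36 over all genes. On scaled values tAT was lower than BAT for 11 core and 5 cap subunits, with medians of -0.55 and -0.09, against 26.4% of all genes. Scaling divides all genes of a library by the same factor, so the order of core and cap medians could hardly change between the scales. Against eWAT, tAT was lower for 14 core subunits (median -0.48) and 13 cap subunits (median -0.32) on FPKM, against 36.0% of all genes, and for 10 of each when scaled, against 31.2%. Without the muscle-rich libraries the medians of tAT minus eWAT on FPKM were -0.19 for the core and -0.22 for the cap, against -0.11 over all genes. Whether the core and the cap differ was not tested.

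Within the alpha ring, whose 7 subunits gate the entry to the core, Psma5 and Psma7 were lower in BAT than in both white depots on both scales. Psma7 had 97.8, 95.6, 131 and 100.2 FPKM in tAT, 76.5, 81.9, 79.9 and 72.2 in BAT, 195, 155, 146 and 151 in eWAT and 156, 145, 162 and 149 in iWAT. On FPKM the depots fell in the order BAT, tAT, then the white depots, which overlapped. When scaled, tAT (86.9 to 126.5) and BAT (101.6 to 111.8) overlapped. BAT minus eWAT was -1.04 ± 0.11 (SE, adjusted p = 3.05e-07), or -0.41 scaled. Psma5 in BAT averaged 32.3 ± 2.23 FPKM, against 74.3 ± 8.63 in eWAT and 63.5 ± 4.49 in iWAT (SD, n = 4 each). Psma3 behaved differently, at 137 ± 18.9 FPKM in tAT, 143 ± 10.6 in BAT, 167 ± 12.2 in eWAT and 155 ± 14.5 in iWAT. BAT minus iWAT was -0.11 (adjusted p = 0.319) on FPKM and 0.54 (adjusted p = 0.000897) scaled. The ratio of Psma3 to Psma7, free of the scaling and chosen after the values were seen, was 1.25 to 1.36 in tAT, 1.61 to 1.95 in BAT, 0.946 to 1.11 in eWAT and 0.895 to 1.07 in iWAT. BAT stood highest, tAT next, and the white depots overlapped.

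Among the structural beta subunits, Psmb4 was the most abundant, with 163, 155, 241 and 161 FPKM in tAT, 216, 166, 164 and 167 in BAT, 267, 237, 224 and 244 in eWAT and 204, 218, 254 and 219 in iWAT. tAT 3 and BAT 1 stood above the rest of their depots, and BAT minus eWAT was -0.45 ± 0.13 (SE, adjusted p = 0.00659) on FPKM and 0.18 (adjusted p = 0.267) scaled. Psmb3 was higher in BAT than in tAT on both scales, at 94.3, 92.5, 128 and 101 FPKM in tAT and 151, 144, 129 and 125 in BAT, a difference of -0.41 ± 0.11 (SE, adjusted p = 0.00347) that was -0.21 (adjusted p = 0.284) without the muscle-rich libraries. Psmb1 and Psmb2 averaged 83.6 ± 5.34 and 92.7 ± 5.41 FPKM in BAT, against 142 ± 12.3 and 112 ± 7.39 in iWAT (SD, n = 4 each). Psmb2 turned with the scaling, since BAT minus iWAT was -0.27 (adjusted p = 0.04) on FPKM and 0.38 (adjusted p = 0.0141) scaled. For Psmb1 it was -0.75 (adjusted p = 5.97e-06) and -0.10 (adjusted p = 0.452).

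The 6 base ATPases form a ring that unfolds substrates, and they did not move together in BAT. Psmc1, Psmc2, Psmc3 and Psmc5 were lower in BAT than in iWAT, with differences of -0.93, -0.84, -0.80 and -0.78 (adjusted p at most 1.18e-07). Psmc4 and Psmc6 differed by -0.11 (adjusted p = 0.41) and -0.22 (adjusted p = 0.0196). Psmc1 had 65.0, 62.3, 70.5 and 63.7 FPKM in tAT, 44.7, 45.5, 41.8 and 41.9 in BAT, 88.3, 83.4, 78.4 and 78.4 in eWAT and 80.8, 84.6, 84.4 and 84.1 in iWAT, and BAT was below all other libraries. Psmc4 had 53.6, 56.4, 60.5 and 47.9 FPKM in tAT, 66.3, 67.6, 53.6 and 55.6 in BAT, 89.6, 79.7, 64.1 and 71.5 in eWAT and 60.0, 72.3, 62.7 and 66.2 in iWAT. Scaled, BAT minus iWAT was -0.28 for Psmc1 (adjusted p = 0.0025) and 0.54 for Psmc4 (adjusted p = 0.000578), so the ring's members passed in opposite directions. The ratio of Psmc4 to Psmc1 within a library was 0.751 to 0.906 in tAT, 1.28 to 1.49 in BAT, 0.817 to 1.01 in eWAT and 0.743 to 0.855 in iWAT, with BAT above all others. This ratio was chosen after the values were seen and has no test. In BAT, Psmc6 also stood apart, since scaled BAT minus eWAT was 0.60 (adjusted p = 2.46e-05), while Psmc3, the most abundant ATPase, was lower, with a difference of -0.25 (adjusted p = 0.00658).

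The base scaffolds Psmd1 and Psmd2 and the ubiquitin receptor Psmd4 were all lower in BAT than in both white depots on FPKM, with Psmd1 at 41.9 ± 1.66 FPKM in tAT, 25.8 ± 2.52 in BAT, 44.7 ± 1.96 in eWAT and 43.8 ± 1.57 in iWAT (SD, n = 4 each). When scaled, only Psmd2 against eWAT passed (-0.21, adjusted p = 0.0139). Of the 8 lid subunits, 7 were lower in BAT than in iWAT on FPKM, against 61.5% of all genes, and 5 were higher when scaled, against 30.6%. Psmd8 was the exception on FPKM, with 93.0, 101, 104 and 90.1 FPKM in tAT, 142, 127, 121 and 121 in BAT, 155, 135, 122 and 141 in eWAT and 104, 126, 108 and 116 in iWAT. tAT was below BAT without overlap, with a difference of -0.39 ± 0.09 (SE, adjusted p = 0.00112), and scaled BAT minus iWAT was 0.82 (adjusted p = 2.37e-06), the highest of all 47 genes. It was also the gene that passed between eWAT and iWAT, by 0.28 ± 0.09 (SE, adjusted p = 0.0475), a call that did not hold in most other settings. The ratio of Psmd8 to Psmd7, again chosen after the values were seen, was 1.88 to 2.06 in tAT, 3.40 to 4.15 in BAT, 2.03 to 2.31 in eWAT and 1.83 to 2.0 in iWAT.

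Psmd14, the lid enzyme that cuts ubiquitin chains from substrates, had 45.5, 50.4, 70.4 and 56.9 FPKM in tAT, 39.5, 41.8, 47.8 and 37.4 in BAT, 87.1, 86.7, 73.3 and 82.7 in eWAT and 62.5, 76.1, 80.1 and 75.9 in iWAT. Its BAT minus eWAT difference was -0.97 ± 0.12 (SE, adjusted p = 2.97e-06), and it passed when scaled as well (-0.34). Psmd11, a lid scaffold, was the only member that passed as higher in tAT than in eWAT on scaled values (0.30, adjusted p = 0.0426), with 49.0, 51.8, 47.0 and 57.4 FPKM in tAT, 29.1, 39.1, 35.9 and 45.0 in BAT, 43.4, 44.3, 46.6 and 42.4 in eWAT and 45.4, 47.5, 41.3 and 47.4 in iWAT. On FPKM tAT minus eWAT was 0.21 (adjusted p = 0.111), and the scaled call was lost without the muscle-rich libraries. Psmd13, named after its values were seen, had 83.8, 228, 95.5 and 88.4 FPKM in tAT, so tAT 2 held more than any other of the 16 libraries, while BAT held 52.8 to 67.2. Without tAT 2 the tAT minus eWAT difference was -0.57 (adjusted p = 0.000266), against -0.23 (adjusted p = 0.404) with it. Psmd13 overlaps Sirt3 on the opposite strand.

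The activators behaved in different ways. Psme1, the partner of Psme2 in the interferon-inducible ring, had 105, 85.2, 144 and 98.6 FPKM in tAT, 73.2, 75.9, 83.0 and 63.2 in BAT, 157, 132, 119 and 131 in eWAT and 116, 125, 174 and 122 in iWAT. BAT was lowest, with BAT minus iWAT at -0.84 ± 0.16 (SE, adjusted p = 0.000157) and -0.71 without iWAT 3, but the scaled difference of -0.19 (adjusted p = 0.317) did not pass. Psme2 followed the same order, with 749, 517, 1121 and 664 FPKM in tAT, 493, 511, 471 and 421 in BAT, 1329, 896, 913 and 1038 in eWAT and 833, 958, 983 and 979.9 in iWAT, and scaled BAT minus eWAT of -0.49 (adjusted p = 0.0373). Psme3, the nuclear activator, was nearly level on FPKM, at 32.9 ± 3.08 in tAT, 34.0 ± 2.09 in BAT, 34.6 ± 2.12 in eWAT and 36.4 ± 2.23 in iWAT, with no comparison passing. Scaled, it was higher in BAT than in eWAT by 0.59 and than in iWAT by 0.54, where the median of all genes is near 0. Psme4, an activator linked to histone turnover, had 25.0, 31.3, 16.1 and 24.2 FPKM in tAT, 15.0, 16.7, 17.7 and 18.4 in BAT, 20.8, 19.6, 22.0 and 22.5 in eWAT and 22.2, 27.6, 20.6 and 24.2 in iWAT. tAT 3, with few muscle transcripts, was the lowest tAT library, and tAT minus BAT of 0.46 ± 0.15 (SE, adjusted p = 0.013) was 0.03 without the muscle-rich libraries.

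Psmf1, which inhibits the core in vitro and acts as a transport adaptor in flies and mice, had the lowest BAT minus eWAT and BAT minus iWAT differences of the tested members outside the immunoproteasome, on both scales. Against tAT, the lid subunit Psmd13 had a wider difference, with tAT minus BAT at 0.92 (adjusted p = 0.00226), 0.38 scaled (adjusted p = 0.176) and 0.58 on FPKM without tAT 2 (adjusted p = 0.000131). Psmf1 had 13.7, 12.5, 14.0 and 13.2 FPKM in tAT, 7.39, 7.09, 7.44 and 7.71 in BAT, 22.2, 21.0, 19.2 and 19.6 in eWAT and 17.8, 19.0, 16.6 and 19.4 in iWAT, and its 4 groups overlapped only between eWAT and iWAT. tAT minus BAT was 0.77 ± 0.07 (SE, adjusted p = 1.98e-07), BAT minus eWAT -1.35 ± 0.07 (SE, adjusted p = 1.12e-10) and BAT minus iWAT -1.19 ± 0.07 (SE, adjusted p = 6.47e-10), and tAT minus eWAT was -0.58 ± 0.07 (SE, adjusted p = 7.74e-06) and tAT minus iWAT -0.42 ± 0.07 (SE, adjusted p = 0.000423). All 5 passed in the same direction when scaled, at 0.28, -0.77, -0.59, -0.49 and -0.32. The tAT minus iWAT difference was -0.36 (adjusted p = 0.0691) without the muscle-rich libraries.

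The assembly chaperones were lower in tAT than in eWAT. All 7 passed on FPKM, with a median of -0.64, against 36.0% of all genes, and 6 passed when scaled, against 31.2%. Without the muscle-rich libraries the median was -0.34, against -0.11 over all genes. Psmd10, a base chaperone also known as gankyrin, had 8.90, 9.44, 10.5 and 9.21 FPKM in tAT, 10.9, 9.02, 8.27 and 8.27 in BAT, 18.3, 16.5, 14.4 and 18.4 in eWAT and 13.8, 15.1, 14.7 and 14.5 in iWAT. tAT lay below both white depots without overlap, with differences of -0.76 ± 0.10 (SE, adjusted p = 8.99e-06) and -0.56 ± 0.10 (SE, adjusted p = 0.000379). With the muscle-rich libraries left out, tAT minus eWAT was -0.63 (adjusted p = 0.00931) and tAT minus iWAT -0.43, at an adjusted p of 0.0696. Psmd5, which also assembles the base, averaged 18.5 ± 1.21 FPKM in tAT, 14.0 ± 0.738 in BAT, 30.7 ± 2.62 in eWAT and 27.1 ± 1.60 in iWAT (SD, n = 4 each), with tAT minus eWAT at -0.70 ± 0.08 (SE, adjusted p = 2.63e-06). Psmd9 averaged 15.5 ± 1.66 FPKM in tAT, 12.2 ± 1.11 in BAT, 22.6 ± 1.89 in eWAT and 20.7 ± 1.44 in iWAT. Its lowest depot was BAT on FPKM and tAT on scaled values, where tAT averaged 14.5 ± 1.81 and BAT 16.6 ± 1.52, a difference that did not pass (adjusted p = 0.112). Psmg1, which pairs with Psmg2 to build the alpha ring, was higher in BAT than in tAT. It had 16.5, 15.6, 24.4 and 17.5 FPKM in tAT, 27.5, 26.7, 24.3 and 21.5 in BAT, 28.3, 26.1, 25.0 and 28.1 in eWAT and 22.0, 22.5, 26.1 and 23.8 in iWAT, and tAT minus BAT was -0.43 ± 0.12 (SE, adjusted p = 0.00485) and -0.96 scaled, or -0.14 without the muscle-rich libraries, where it did not pass. The dimer partners Psmg3 and Psmg4 averaged 9.98 ± 1.76 and 18.8 ± 3.53 FPKM in tAT, against 16.1 ± 2.33 and 30.7 ± 4.56 in eWAT. The tissue-restricted genes were at the floor of the table. Psma8, the alpha subunit of germ cells, was at most 0.372 FPKM in all 16 libraries, and Psmb11, the catalytic subunit of thymic epithelium, was listed at 0 in 12 of them and at most 0.020 FPKM elsewhere.

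Nfe2l1 itself, at chr11:96817414-96829968 on the minus strand, was abundant in all depots. It had 282, 311, 211 and 242 FPKM in tAT, 192, 200.4, 178 and 210.3 in BAT, 224, 237, 291 and 276 in eWAT and 255, 302, 226 and 252 in iWAT. BAT lay below all libraries of eWAT and iWAT and just below the lowest tAT library, tAT 3, on FPKM. tAT minus BAT was 0.41 ± 0.13 (SE, adjusted p = 0.00948), BAT minus eWAT -0.39 ± 0.13 (SE, adjusted p = 0.0113) and BAT minus iWAT -0.40 ± 0.13 (SE, adjusted p = 0.00983). Scaled, these became -0.14 (adjusted p = 0.383), 0.25 (adjusted p = 0.091) and 0.25 (adjusted p = 0.09). All 3 had the opposite sign and none passed. The direction of Nfe2l1 in BAT therefore turns with the scaling. tAT minus eWAT and tAT minus iWAT were 0.02 ± 0.13 and 0.01 ± 0.13 (SE), with adjusted p of 0.903 and 0.957. In tAT the muscle-rich libraries were the higher ones, and tAT minus BAT was 0.11 (adjusted p = 0.683) without the muscle-rich libraries. Within tAT, Nfe2l1 and Psme4 were lowest in tAT 3, while Psmb4 was highest there.

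**Figure D5:**
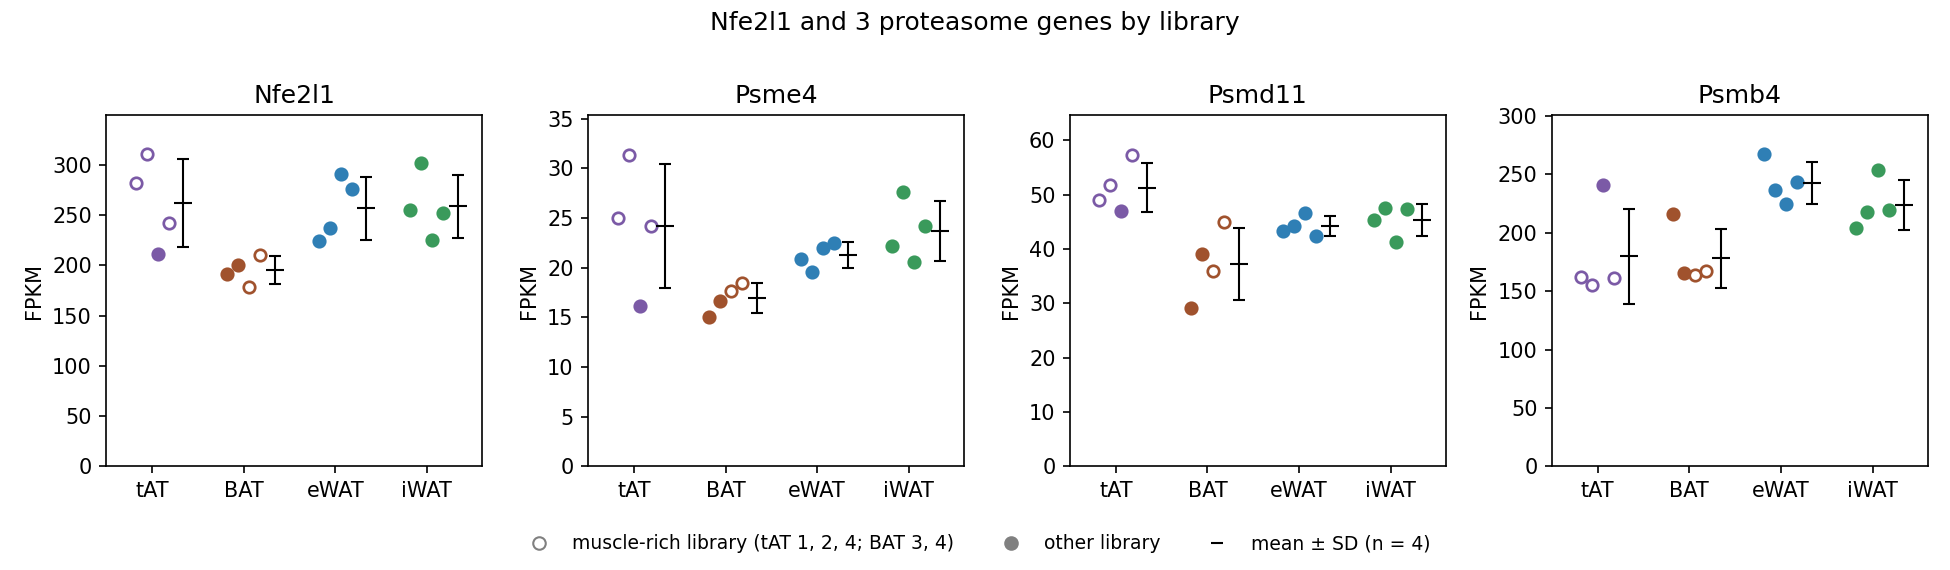
FPKM of Nfe2l1, the activator Psme4, the lid subunit Psmd11 and the core subunit Psmb4 by library, with mean ± SD of 4 libraries. Open circles are the muscle-rich libraries. In tAT the filled point, tAT 3, is the lowest for Nfe2l1 (211 FPKM), Psme4 and Psmd11 and the highest for Psmb4 (241 FPKM).

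Genes that work with the proteasome were read from 6 lists. Of 13 genes of class I antigen processing, all 13 were higher in tAT than in BAT, 12 were lower in BAT than in eWAT and 13 were lower in BAT than in iWAT on FPKM, against 58.6%, 59.0% and 61.5% of all genes. When scaled, 12, 10 and 12 passed in those directions, against 27.4%, 35.5% and 33.4%. The median BAT minus iWAT difference was -1.72 on FPKM, against -0.54 over all genes. B2m, the light chain of class I molecules, had 1987, 1935, 2415 and 1922 FPKM in tAT, 351, 297, 435 and 279 in BAT, 3669.9, 2789.9, 2432 and 3395 in eWAT and 2714, 3476, 3079 and 3109.8 in iWAT, with BAT minus iWAT at -3.20 ± 0.16 (SE, adjusted p = 5.66e-11) and tAT minus BAT at 2.61 ± 0.16 (SE, adjusted p = 1.59e-09). All BAT libraries were below the rest. In tAT, 5 of the 13 were higher and 3 lower than in eWAT on FPKM, against 21.6% and 36.0% of all genes, and 1 was higher and 4 lower than in iWAT, against 10.5% and 29.4%. Leukocyte markers moved with the low values in BAT but were lower in tAT than in eWAT for 5 of 9, against 36.0% of all genes. Their part was not tested.

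Of 14 proteasome partners outside the naming rule, 10 were higher and 1 lower in tAT than in BAT, 10 were lower and 1 higher in BAT than in eWAT, and 9 were lower and 1 higher in BAT than in iWAT on FPKM. Over all genes 58.6% were higher in tAT than in BAT, and 59.0% and 61.5% were lower in BAT, so these counts lay near the background. Scaled, BAT was lower than iWAT for 5 and higher for 6, against 33.4% and 30.6% of all genes. Ubqln2, a shuttle that carries ubiquitinated proteins, had the widest difference of the list, with BAT minus eWAT at -2.44 ± 0.10 (SE, adjusted p = 7.85e-12) and tAT minus BAT at 1.41 ± 0.10 (SE, adjusted p = 1.31e-08). It averaged 12.5 ± 1.76 FPKM in tAT, 4.04 ± 0.174 in BAT, 26.4 ± 2.02 in eWAT and 19.9 ± 2.11 in iWAT. The ubiquitin gene Ubb had 556, 538, 606 and 454 FPKM in tAT, 257, 219, 178 and 171 in BAT, 1126, 1093, 1001 and 1057 in eWAT and 839, 939, 848 and 974 in iWAT, with BAT minus eWAT at -2.39 ± 0.13 (SE, adjusted p = 9.67e-11) and -1.75 scaled. Of the 6 ubiquitin genes and activating enzymes, 4 were lower in BAT than in eWAT and 3 lower and 1 higher than in iWAT on FPKM, near the shares of all genes given above. When scaled, 2 were higher and 2 lower in BAT in each of these comparisons. Over all genes these shares were 33.8% and 35.5% against eWAT and 30.6% and 33.4% against iWAT.

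A list of 11 genes was drawn up around the processing and turnover of Nfe2l1, and it also holds the related factor Nfe2l2. Of these 11, 7 were higher in tAT than in BAT, 7 were lower in BAT than in eWAT and 8 lower than in iWAT on FPKM. These counts also lay near the shares of all genes, 58.6%, 59.0% and 61.5%. When scaled, BAT was lower than iWAT for 3 and higher for 3, against 33.4% and 30.6% of all genes. Syvn1, the ubiquitin ligase of the endoplasmic reticulum that turns Nfe2l1 over, was lowest in BAT on both scales, at 20.5 ± 2.11 FPKM in tAT, 9.41 ± 1.29 in BAT, 27.8 ± 2.22 in eWAT and 24.9 ± 0.459 in iWAT, with BAT minus eWAT at -1.47 ± 0.09 (SE, adjusted p = 9.4e-10) and -0.88 scaled. Among the 4 small Maf and bZIP partners, all 4 were higher in tAT than in BAT on FPKM and 1 when scaled, against 58.6% and 27.4% of all genes. Maff had 2.15, 2.38, 1.94 and 1.79 FPKM in tAT, 1.72, 1.49, 1.07 and 0.705 in BAT, 13.5, 8.09, 7.75 and 12 in eWAT and 3.89, 5.70, 3.89 and 4.63 in iWAT, so eWAT was highest, by 1.01 ± 0.18 (SE, adjusted p = 0.00173) over iWAT. Of the 4 muscle ubiquitin ligases, 3 were higher in tAT than in each other depot on FPKM, against 58.6% of all genes for BAT, 21.6% for eWAT and 10.5% for iWAT. Trim63 had 23.9, 27.1, 0.235 and 15.7 FPKM in tAT, with tAT 3 lowest, and Fbxo32 had 8.09, 9.69, 1.90 and 5.22, so both followed the muscle markers within tAT.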

How the data were processed

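RNA-seq of whole fat depots was deposited as FPKM per gene, a single table of 16 libraries made by the authors with TopHat, TopHat2 2.0.9 and Cufflinks 2.1.1 on mm10, per the submitters' processing notes. Settings, annotation and strand handling were not given in the sources used here, 11 of the genes overlap another protein-coding gene, and the read depth behind each FPKM is unknown. Libraries were grouped by the depot in their labels. Symbols were matched to GENCODE and RefSeq tables of GRCm38.

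The 14991 genes that reached 1 FPKM in 4 or more libraries were compared on log2(FPKM + 1), a scale that understates changes of low genes. All 16 libraries entered 1 linear model in limma 3.58.1 under R 4.3.3, with the trend and robust options of eBayes. P-values were adjusted by Benjamini-Hochberg over all tested genes, with a threshold of 0.05. Scaled values are FPKM divided by median-of-ratios size factors over 17389 entries. Ratios of catalytic pairs were compared by exact permutation tests. Tables were handled in python 3.11.15 with pandas 2.3.3, numpy 2.4.6 and scipy 1.17.1, and the limma step was tested on simulated data. Alternatives were another pseudocount, 2 other filters, scaling, fits of 2 depots, a replicate block, and leaving out the muscle-rich libraries or each library in turn.

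The members and lists were chosen with earlier results of these data known. Genes named throughout are Nfe2l1, the catalytic subunits, activators, Psmf1, Psmd11, Psmd14, Psmg1 and the tissue-restricted genes, the 3 largest rises and falls of each comparison, the highest and lowest gene by mean in each class, and the largest rise and fall of each related list. Other genes given values were chosen after their values were seen, among them Psmb1, Psmb2, Psmc1, Psmc2, Psmc4, Psmc5, Psmd2, Psmd9 and Psmd13. A further promoter pattern is not reported here.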

Additional observations from a re-analysis of the deposited data

Results flagged for a closer look

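In 12 of 132 groups of 4 libraries, the highest or lowest library stood apart from the other 3, with a gap to the nearest above Dixon's critical share of the range. Chance flags about 1 in 20 groups. The groups came from the genes named throughout and the ratios of the catalytic pairs. Psmd13, whose tAT 2 value stood far above the other tAT libraries, was not among the genes named throughout, so the rule was not applied to it. In tAT 3, the tAT library with few muscle transcripts, Psma7 stood at 131 FPKM, Psmb4 at 241 and Psmb7 at 134, each above the other tAT libraries. In iWAT 3, the library with many lymphocyte transcripts, Psmb8 stood at 80.3 FPKM, Psmb9 at 53.4 and Psme1 at 174, each above the other iWAT libraries. In eWAT 1, Psmb9 stood at 39.7 FPKM and Psmd12 at 56.6, both above the other eWAT libraries. In BAT 1, Psmb4 stood high at 216 FPKM. In BAT 3, Psmc3 stood low at 70.5 FPKM, and the ratio of Psmb9 to Psmb6 stood high at 0.0776. In iWAT 2, Psmb5 stood low at 64.0 FPKM. The part of muscle or lymphocyte transcripts in these values was not tested.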

How the results depend on the processing

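Read depth is unknown, so no counting error could be given, and tAT without its muscle-rich libraries is a lone library taken to vary like the other depots. The scaling mattered most. On scaled values the counts of proteasome genes were 4 higher and 21 lower for tAT against BAT, 1 higher for tAT against eWAT, 9 lower for tAT against iWAT, 12 higher and 16 lower for BAT against eWAT, 19 higher and 9 lower for BAT against iWAT, and 0 higher for eWAT against iWAT. The scaled log2 differences with the opposite sign were, for tAT minus BAT, -0.14 in Nfe2l1, -0.10 in Psma7, -0.072 in Psmd11, -0.14 in Psmd14, -0.14 in Psmd5, -0.014 in Psme1 and -0.067 in Psme4. For BAT minus eWAT they were 0.25 in Nfe2l1, 0.18 in Psmb4, 0.10 in Psmb6, 0.34 in Psmb7, 0.37 in Psmd11 and 0.25 in Psmd12. For BAT minus iWAT they were 0.25 in Nfe2l1, 0.32 in Psmb4, 0.27 in Psmb6, 0.43 in Psmc6, 0.35 in Psmd11, 0.41 in Psmd12, 0.18 in Psmd4, 0.17 in Psme4 and 0.23 in Psmg3. Without the muscle-rich libraries, 0 genes were lower in tAT than in BAT (5 on scaled values), 7 lower than in eWAT (2 scaled, with 0 higher), 1 lower than in iWAT (0 scaled), and 0 were higher in eWAT than in iWAT. There, tAT minus eWAT was 0.12 in Psme2 and tAT minus iWAT was 0.050 in Psmg1, against the sign with all libraries. The log2 difference of Psmb9 to Psmb6 was 2.57 for tAT minus BAT and 0.91 for tAT minus eWAT, and that of Psmb10 to Psmb7 was 0.069 for tAT minus iWAT. The single gene higher in eWAT than in iWAT was lost, with 0 genes, under a pseudocount of 0.1, with no filter, in a fit of those 2 depots and with the replicate block. In the fit of 2 depots, 15 genes were lower in tAT than in iWAT. Leaving out each library in turn gave 0 to 1 genes higher in tAT than in eWAT, 14 to 33 lower in tAT than in iWAT and 0 to 2 higher in eWAT than in iWAT. On scaled values it gave 0 to 2 higher in tAT than in eWAT, 0 to 1 higher and 4 to 25 lower in tAT than in iWAT, and 0 to 4 higher in eWAT than in iWAT. The cause of these changes was not tested. Deviations from the depot mean over all tested genes were not more alike in libraries with the same number. Of 24 same-number pairs, 4 correlated over 0.1 (r from -0.27 to 0.23), and 1 of 16 libraries was best matched by its own number. This check cannot tell whether same-number libraries share an animal, because differences in muscle content enter it as well. With the replicate block, scaled values gave 2 genes higher in tAT than in eWAT and 1 higher than in iWAT. Immunoproteasome genes kept their direction and call in BAT in every alternative run.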
